A study of Drosophila melanogaster with 2 samples.

Results

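Polycomb and trithorax group genes were examined for peaks of the protein of the fly gene CG10979 in Drosophila melanogaster embryos. The genes were taken from a fixed list of 32 symbols, 30 of which were found in the Ensembl annotation, of 13945 protein-coding genes on 6 chromosome arms. The symbols calypso and lid were not found under these names and were left out. The 30 genes comprised 17 of the Polycomb group and 13 of the trithorax group. Chromatin immunoprecipitation followed by sequencing (ChIP-seq) had been done with an anti-GFP antibody on whole embryos of pooled sex, 0 to 14 h of age, from a transgenic line stably carrying CG10979 with eGFP at its C terminus. There was 1 group with 2 biological replicates, numbered 2 and 3, so that no conditions could be compared and no test between groups was possible. The regulatory sequence that drives the fusion was not given in the sources used here. In whole embryos, binding in few cells and weak binding in many cells cannot be told apart.

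Polycomb group proteins keep developmental genes such as the homeotic genes silent, and trithorax group proteins oppose them and keep such genes active. Polycomb proteins act in complexes. PRC2 methylates histone H3, PRC1 binds the methylated histone and compacts chromatin, PhoRC binds DNA, and PR-DUB removes ubiquitin from histone H2A. Trithorax group proteins include histone methyltransferases, the ATP-driven Brahma chromatin remodeller and subunits of the Mediator coactivator. Several Polycomb group genes, ph-p and Psc among them, are known in flies to be targets of Polycomb proteins themselves.

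Peaks are described by the summit, the base with the highest enrichment, and by the signal value that the authors' peak caller gave, which ranks peaks within a list. The list filtered by the authors on the irreproducible discovery rate (IDR), which weighs agreement between replicates, held 7630 peaks. Its lowest signal value was 189.9. The relaxed lists of replicate 2, replicate 3 and the pool of both held 30000 peaks each. Of the IDR summits, 7351 had a counterpart within 100 bp in the relaxed lists of both replicates, so that not all of them recurred. Read depth is unknown, because peak lists hold no counts. A summit was credited to a gene start when it lay within 500 bp of any annotated transcript start, and to an extended span when it lay in the gene or within 5 kb of either end. Positions are on build dm6, counted from 1.

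The 7 windows below reach 50 bp to either side of the strongest summit of each of 7 genes, and are shown because these summits differ in position, at own starts, in introns, upstream or at a neighbour's start, while each window is poor in G and C. Only windows free of annotated untranslated sequence were printed. They are given on the plus strand, and capitals mark matches on either strand to the words named with their shares further on, among them the TATA box, the core of the Pho site and the Zeste words.
ph-p internal, chrX:2137265-2137365: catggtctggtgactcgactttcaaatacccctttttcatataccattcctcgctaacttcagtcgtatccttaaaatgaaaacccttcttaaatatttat
ph-d upstream, chrX:2124070-2124170: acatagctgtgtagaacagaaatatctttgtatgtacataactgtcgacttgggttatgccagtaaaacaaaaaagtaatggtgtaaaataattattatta
Trl intron, chr3L:14759465-14759565: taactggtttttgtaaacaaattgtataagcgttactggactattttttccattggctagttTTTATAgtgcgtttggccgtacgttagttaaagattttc
osa intron, chr3R:17704358-17704458: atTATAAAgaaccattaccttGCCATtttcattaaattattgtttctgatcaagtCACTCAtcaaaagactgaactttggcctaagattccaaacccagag
trx intron, chr3R:14283825-14283925: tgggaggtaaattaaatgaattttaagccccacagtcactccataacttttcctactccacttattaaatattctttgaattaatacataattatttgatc
brm and Arl1 starts, chr3L:15982960-15983060: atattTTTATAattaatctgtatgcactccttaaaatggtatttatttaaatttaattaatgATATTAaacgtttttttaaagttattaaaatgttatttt
CG14100 start beside ash1, chr3L:19590573-19590673: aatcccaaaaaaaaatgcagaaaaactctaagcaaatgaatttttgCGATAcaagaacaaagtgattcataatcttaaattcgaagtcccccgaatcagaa

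Of the 30 genes, 14 had an IDR summit at a start (46.7%), against a background of 25.2% of all protein-coding genes (3520 of 13945). These were 8 of the 17 Polycomb group genes and 6 of the 13 trithorax group genes. When each replicate's own 7630 strongest peaks were used, 14 genes were found in replicate 2 (background 24.4%) and 14 in replicate 3 (background 26.3%). Of these, 11 genes were found in both, a count for which no share over all protein-coding genes is given. The relaxed lists had a start summit for 27 genes in the pool (background 54.1%), 26 in replicate 2 (background 54.0%) and 28 in replicate 3 (background 54.3%). Among the stronger 50% of IDR peaks, 7 genes had one (background 13.1%). The genes were longer than most, with a median length of 7772 bp against 2166 bp over all protein-coding genes, and 19 of them were at least 4999 bp long. Of these, 9 genes had an IDR summit at a start (47.4%), against 34.5% of all genes of that length. The 30 genes also had more annotated starts, with a median of 1.5 against 1 over all protein-coding genes. Each start adds a window in which a summit counts.

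Among PRC1 genes, ph-p carried the strongest start summits of the whole set, and its tandem copy ph-d far weaker ones. Both encode Polyhomeotic proteins, which link PRC1 complexes through their SAM domains. ph-p (FBgn0004861) lies on chromosome X at 2126210 to 2138371 on the minus strand. Its summit at 2137315, in an intron and 460 bp upstream of an internal start, had signal values of 3805 in replicate 2, 2839 in replicate 3 and 6437 in the pool, where it ranked 11 of the IDR list. Its summit at 2137958, 413 bp inside the outermost start, had 2498 in replicate 2, 2091 in replicate 3 and 4434 in the pool (rank 44). Further intronic summits of ph-p had pooled signal values of 1326 and 838.2. The start summits of ph-d (FBgn0004860, chromosome X at 2115727 to 2123286) had pooled values of 448.3 and 423.3, the second with 260.8 in replicate 2 and 177.1 in replicate 3. The strongest summit near ph-d lay 834 bp upstream of its start, outside the 500 bp window, with 1874 in replicate 2, 1611 in replicate 3 and 3483 in the pool (rank 85). Both replicates thus gave the ph-p start summits and the upstream ph-d summit in the same order, with the ph-p intron highest. The weaker start summits of ph-d did not keep their order. The strongest was at 2122128 in replicate 2 (260.8), at 2123052 in replicate 3 (223.0) and at 2123162 in the pool (448.3).

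The similarity of the ph copies was measured because reads of near-identical sequence cannot be assigned to one of them. The 301 bp around the strongest ph-p summit had its best match in the ph-d region over 104 aligned positions with 89.4% identity. That match covered positions 1 to 100 of the window and did not include the summit, at position 151. Around the second ph-p summit the best match spanned 165 positions with 81.8% identity and included the summit. For the upstream ph-d summit it was 79 positions with 75.9% identity. The match to the strongest ph-p summit overlapped no IDR peak and was 424 bp from the nearest IDR summit. The other 2 matches each lay wholly inside an IDR peak of the other copy. The match to the second ph-p summit was in the upstream ph-d peak, 126 bp from its summit, and the match to the upstream ph-d summit was in the second ph-p peak, 103 bp from its summit. How the authors treated reads that map to several places is not given in the sources used here, so that values at both genes are uncertain in this respect.

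The remaining PRC1 genes had no IDR summit at a start. Psc encodes a RING finger protein of PRC1, and Su(z)2 is its neighbouring relative. Psc (FBgn0005624, chromosome 2R at 12965997 to 12980994) had a summit 4216 bp upstream of its nearest start with 2763 in replicate 2, 2333 in replicate 3 and 5079.6 in the pool, rank 24. This summit lay 157 bp from the start of the noncoding RNA gene lncRNA:CR44339. A second Psc summit, in an intron, had a pooled value of 1520.0. At the starts of Psc itself the strongest relaxed summit had 110.8 in replicate 2, 65.8 in replicate 3 and 166.0 in the pool, the nearest to the IDR list of the starts that missed it. Su(z)2 had 4 IDR summits in its extended span, of 252.9 to 473.6. At Pc, whose chromodomain protein reads the Polycomb histone mark, the extended span held 1 IDR summit, with 3301 in replicate 2, 2735 in replicate 3 and 6006 in the pool (rank 15). It lay 90 bp from a start of CG11309 and 129 bp from one of CG7632, and 13452 bp from the start of Pc, where the pooled value was 142.7. Scm, a SAM domain protein gene, had 1 summit (198.9), which lay 25 bp from a start of Calr. Sce, which encodes the ubiquitin ligase of PRC1, had none in the IDR list, and its strongest summit in the relaxed pooled list was 158.0.

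PRC2 genes carried start summits in 4 of 6 cases (background 25.2% of all protein-coding genes). E(z), the methyltransferase of PRC2, had 1079.8 in replicate 2, 910.5 in replicate 3 and 1985 in the pool (rank 333) at 110 bp inside its start. The same summit was 126 bp from a start of Cnep1r2. Su(z)12, another core subunit, had 699.2 in replicate 2, 319.2 in replicate 3 and 1021 in the pool (rank 1099). A second Su(z)12 summit, with a pooled value of 472.8, lay at 19923579 in the same peak interval as the first, at 19923373. Both were also within 500 bp of a start of Pfdn6. In replicate 2 the main Su(z)12 summit was 1.13 log2 units stronger than in replicate 3, a wider gap than at E(z) (0.25). Jarid2, an accessory subunit, had 178.2 in replicate 2, 176.4 in replicate 3 and 365.1 in the pool, 10 bp from a start of Uch-L5. Pcl, a further accessory subunit, had 83.5 in replicate 2, 113.9 in replicate 3 and 192.4 in the pool, just above the lowest IDR value. A stronger Pcl summit, of 517.0 in the pool, lay past its 3′ end. Caf1-55, a histone-binding subunit, had no IDR summit at its start, where the pooled value was 142.9. Its extended span took in the summit of rank 9 (6696), which was 122 bp from a start of Art3 and 135 bp from one of mRpS10. esc, which encodes a WD repeat subunit, had no summit of any list in its extended span.

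Of the 3 genes of the DNA-binding complex PhoRC, 2 had start summits (background 25.2% of all protein-coding genes). Sfmbt, the partner protein of Pho, had 281.9 in replicate 2, 208.4 in replicate 3 and 480.3 in the pool at 150 bp upstream of its start, and a start of CG5439 was 215 bp from the summit. A second Sfmbt start summit, at 13177134, had 250.7 in the pool, 34.8 in replicate 3 and no counterpart within 100 bp in replicate 2. It was 16 bp from a start of CG5439. The strongest Sfmbt summit, of 1107 in the pool, was 254 bp from a start of DnaJ-H and 292 bp from one of Sirt1. phol, a paralogue of pho, had 106.4 in replicate 2, 90.5 in replicate 3 and 203.7 in the pool. Stronger summits in the extended span of phol, of 314.2 to 3158, were each at starts of other genes. pho, on chromosome 4 at 1172469 to 1181628, had no summit of any list. Chromosome 4 held 25 IDR summits and 146 of the 30000 pooled ones. Asx, the PR-DUB subunit that activates its deubiquitinase, had no IDR summit, and its strongest pooled one was 68.0.

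**Figure D1:**
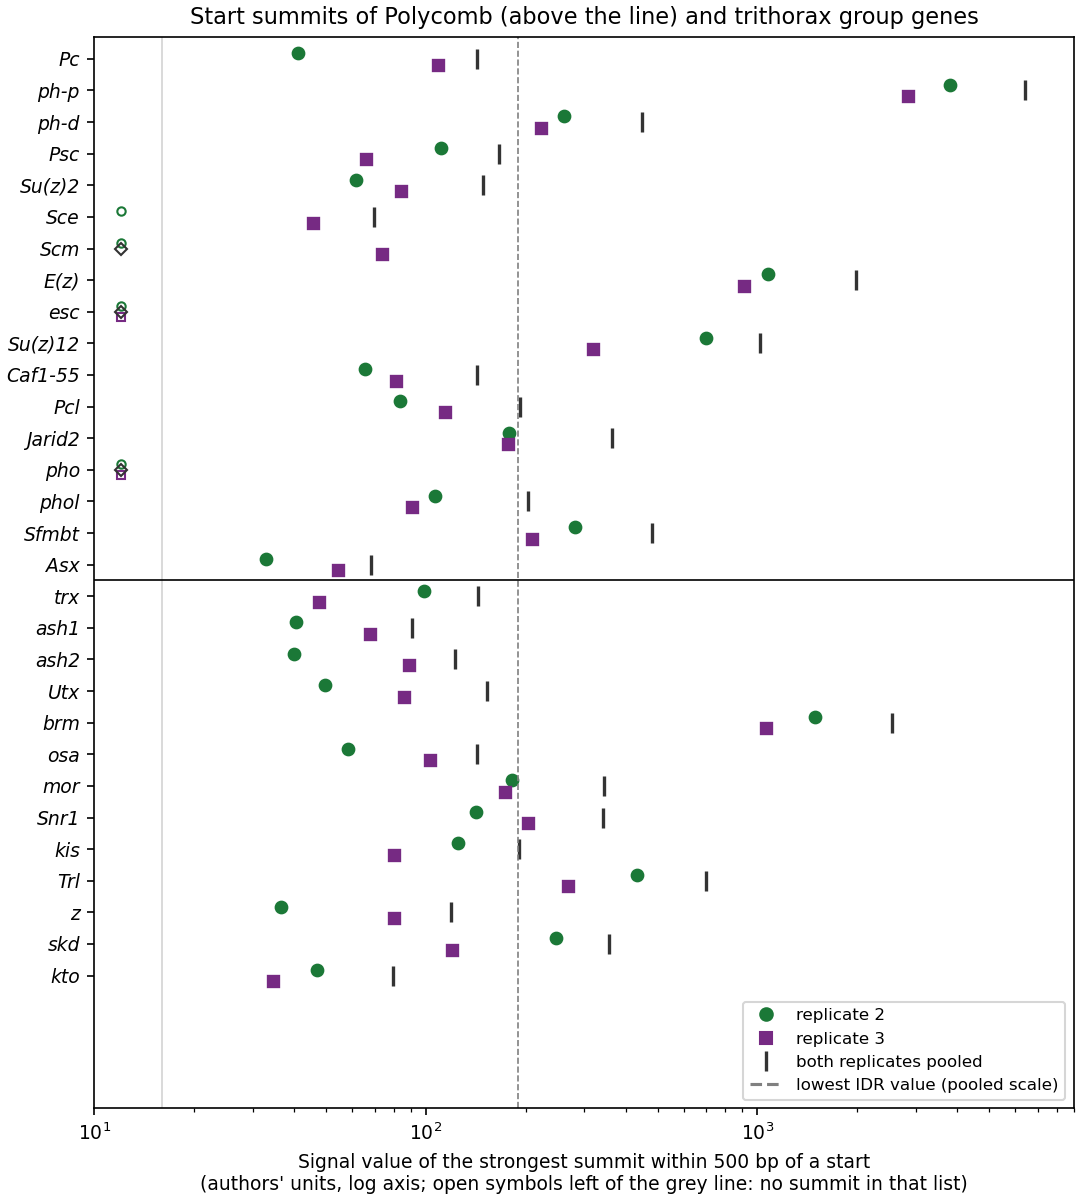
Signal value of the strongest summit within 500 bp of a start for each of the 30 genes (horizontal log axis, the authors' units), in replicate 2 (circles), replicate 3 (squares) and the pool (ticks), with open symbols at the left where a list had none and a dashed line at the lowest IDR value, 189.9. ph-p (6437), brm (2547), E(z) (1985) and Su(z)12 (1021) stand above 1000 in the pool, and esc and pho have no summit.

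Among the trithorax group, genes of the Brahma remodeller carried start summits in 3 of 4 cases (background 25.2% of all protein-coding genes). Of the other Brahma genes, in the wider list counted below, Bap60 had an IDR summit at a start. Bap55, Bap111, Bap170, polybromo and e(y)3 had none there. brm, which encodes the ATPase, had 1494 in replicate 2, 1059 in replicate 3 and 2547 in the pool (rank 191). The summit lay 141 bp upstream of the brm start and 125 bp from a start of Arl1, in the window of 13.9% GC printed above. mor, a core scaffold subunit, had 182.1 in replicate 2, 173.6 in replicate 3 and 344.4 in the pool, 184 bp upstream of its start and also near one of Hel89B. A stronger mor summit, 1517 bp upstream, had 886.4 in the pool. Snr1, another core subunit, had 141.3 in replicate 2, 203.0 in replicate 3 and 342.4 in the pool, and a start of mRpL44 lay 242 bp away. Its strongest summit, of 463.1, was at a start of RpL35A. osa, the subunit that defines the BAP form of the remodeller, had no IDR summit at its start (142.6 in the pool). It had 2 strong summits deep in its introns instead. The one at 17704408 had 1939 in replicate 2, 1476 in replicate 3 and 3408 in the pool (rank 92), and the one at 17700581 had 1659.8 in replicate 2, 1321 in replicate 3 and 2975 in the pool (rank 137). The second was 160 bp from the start of lncRNA:CR46036, a noncoding RNA gene within osa.

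None of the 4 histone methylation genes had an IDR summit at a start (background 25.2% of all protein-coding genes). This did not hold for the genes of the COMPASS group in the wider list counted below. There Rbbp5, Lpt, Dpy-30L1, trr and Mnn1 had one, and Set1, Ptip, Pa1, Cfp1, wds and Hcf had none. trx, which encodes the founding methyltransferase of the group (FBgn0003862, chromosome 3R at 14263358 to 14286903), had intronic summits instead. The one 3028 bp inside its start had 1780.3 in replicate 2, 1286 in replicate 3 and 3061 in the pool (rank 127), and the one 8839 bp inside had 764.4 in replicate 2, 786.8 in replicate 3 and 1565 in the pool. At the start of trx the pooled value was 143.5. Utx, a histone demethylase gene, had 287.1 in replicate 2, 252.1 in replicate 3 and 540.2 in the pool at 559 bp from a start, just outside the 500 bp window, as ph-p at 460 bp was just inside it. ash1, a methyltransferase gene, had 1 summit in its extended span, of 4059.9 in replicate 2, 3155 in replicate 3 and 7199 in the pool (rank 7). It lay past the 3′ end of ash1 and 99 bp from a start of CG14100. ash2, a subunit of methyltransferase complexes, had none, and its strongest pooled summit of 186.1 fell just short of the IDR list.

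Trl and kis had weak or moderate start summits and stronger ones inside the gene. Trl encodes GAGA factor, a DNA-binding protein that opens promoters. Its start summit at 14757211 had 434.7 in replicate 2, 268.1 in replicate 3 and 701.4 in the pool. Its intronic summit at 14759515, 1534 bp from the nearest Trl start, had 2955 in replicate 2, 2264 in replicate 3 and 5205 in the pool (rank 21). kis, a gene for a chromodomain remodeller, had 68.5 in replicate 2, 59.7 in replicate 3 and 191.2 in the pool at its start, just above the lowest IDR value, and 1182 in the pool at an intronic summit 37 bp from the start of lncRNA:CR44222. The replicate values are those within 100 bp of the IDR summit, and the strongest summits at any kis start in the relaxed lists, at other positions, had 124.8 in replicate 2 and 80.1 in replicate 3. z, which encodes the DNA-binding protein Zeste, had a pooled value of 119.3 at its start and 1 IDR summit at a start of tko (209.0). Of the Mediator kinase module genes, skd had 246.4 in replicate 2, 120.2 in replicate 3 and 356.9 in the pool at its start, 84 bp from a start of Pdss2. Its strongest summit, of 1695, was 229 bp from a start of CG10584 and 236 bp from one of Polr3E. kto, the other, had 79.5 in the pool at its start and 1 summit of 259.4 at a start of Papss.

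**Figure D2:**
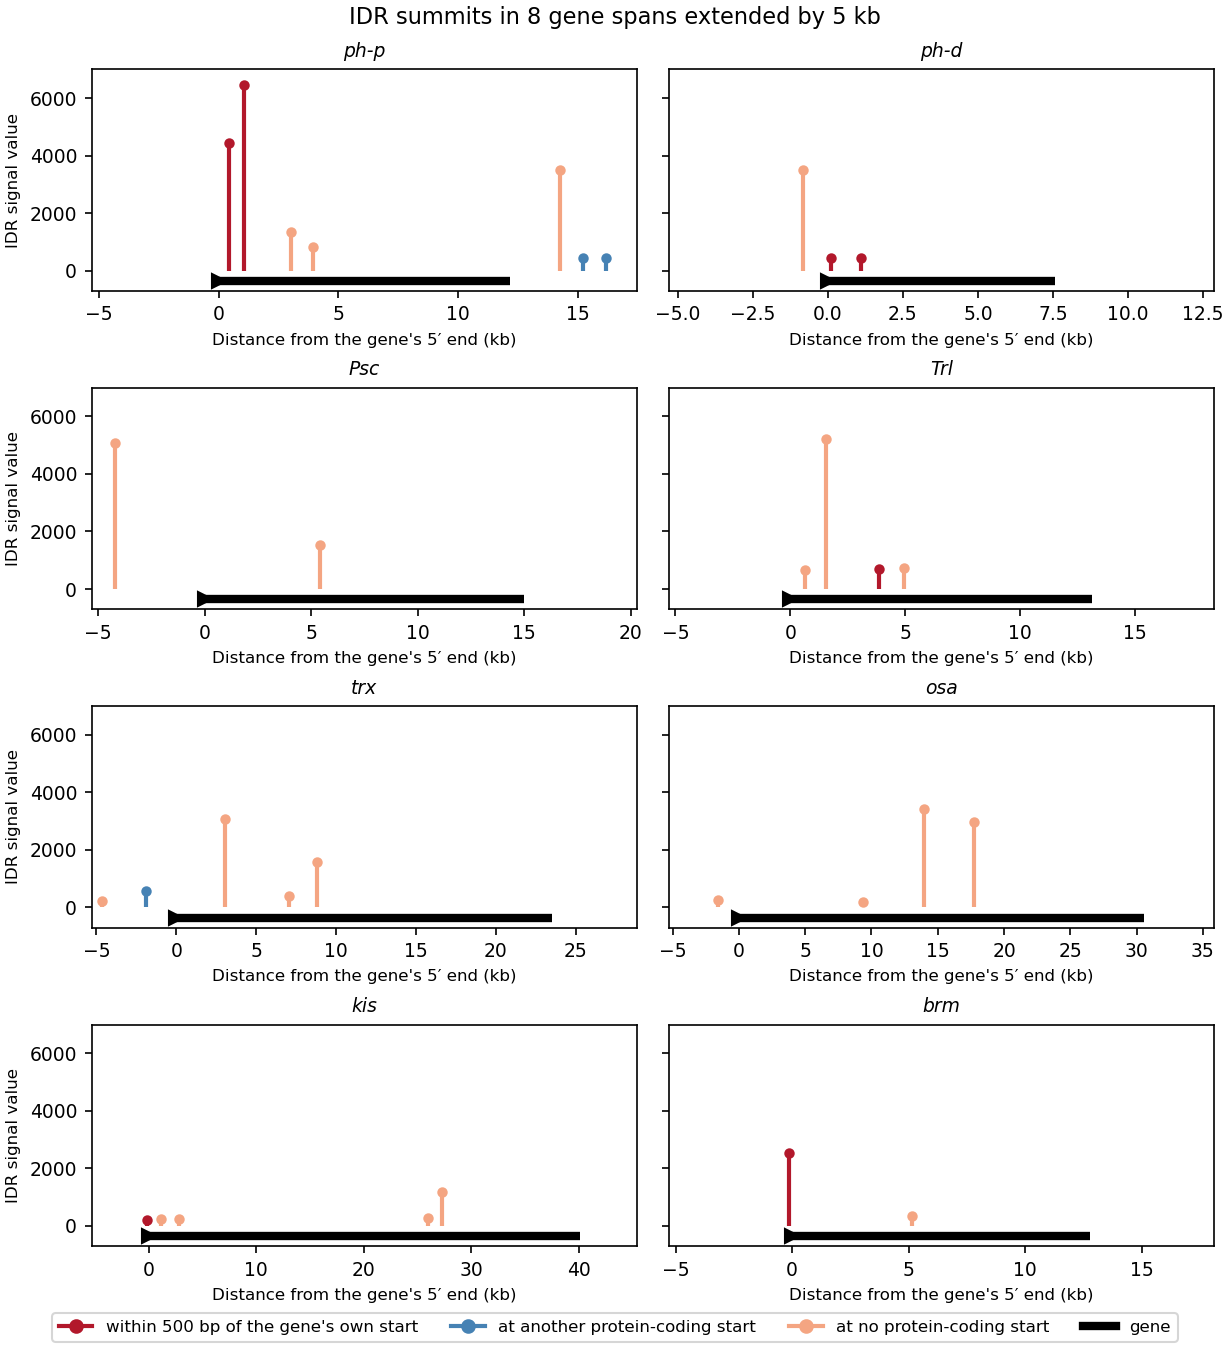
Pooled signal value of each IDR summit (vertical axis, the authors' units) by distance in kb from the 5′ end of 8 genes, with the gene as a black bar and upstream to the left. The highest summits of Psc (5079.6), Trl (5205), trx (3061) and osa (3408) stand away from every protein-coding start, whereas those of ph-p (6437) and brm (2547) are at a start of the gene.

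Over the whole set, 25 of the 30 genes had an IDR summit in the extended span (83.3%, background 58.1% of protein-coding genes), and 11 of these had none at a start. The replicates' own strongest peaks gave 25 genes in replicate 2 (background 57.7%) and 25 in replicate 3 (background 58.7%), and the stronger 50% of IDR peaks gave 21 (background 39.2%). The relaxed lists gave 28 genes in the pool (background 75.7%), 28 in replicate 2 (background 76.6%) and 28 in replicate 3 (background 77.0%). Among genes of at least 4999 bp it was 17 of 19 (89.5%) against 72.0% of all genes of that length. The extended spans covered 602.3 kb and held 63 summits, which is 10.5 per 100 kb, against 6.21 per 100 kb over the extended spans of all protein-coding genes. The replicates' own strongest peaks gave 64 summits in replicate 2 and 63 in replicate 3. Of the 63 summits, 18 were at a start of the gene itself, 15 at a start of another protein-coding gene and 30 at no protein-coding start (47.6%, against 62.6% of all IDR summits). The share of 62.6% is over all 7630 IDR summits, of which 6913 lay in an extended span. The others cannot be at a protein-coding start, so that the sets are not alike. Of those 30, 21 were in introns. Among the genes with an IDR summit in the extended span, the median signal value of the strongest was 1695, against 542.5 over all protein-coding genes with one. In 10 of the 25 genes this strongest summit was at a start of another protein-coding gene, and in 5 it was at the gene's own start. A highest value per gene can grow with the number of summits in its span. Among genes of at least 4999 bp the median was 2547 for 17 of these genes, against 637.2 for all 2510 with a summit. Over single summits the gap was smaller, with a median of 473.6 for the 63 summits, against 373.3 for all IDR summits. The start summits alone had a median of 406.7 for the strongest per gene, against 388.4 over all 3520 genes with one. The start summits were of about the usual strength for a gene start, apart from ph-p, brm, E(z) and Su(z)12. Most of the high values were elsewhere in the spans, in part at starts of other protein-coding genes.

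Some of the strongest summits of the genome fell in these spans. Of the 100 strongest IDR summits, 9 lay in the extended spans of 8 genes (26.7%, background 1.88%, 262 of 13945 genes). The limit of 100 was chosen after the values were seen. The 9 were the summits of ash1 (rank 7), Caf1-55 (9), ph-p (11 and 44), Pc (15), Trl (21), Psc (24), ph-d (85) and osa (92). Of these, 3 were at a start of another protein-coding gene (those of ash1, Caf1-55 and Pc), 2 at starts of ph-p and 4 at no protein-coding start (Trl, Psc, ph-d and osa). With the gene span alone, without the 5 kb on either side, 3 genes held such a summit, namely ph-p, Trl and osa (background 0.351%). At a start it was 1 gene, ph-p (background 0.502%). IDR summits with a signal value of 1000 or more at no protein-coding start lay in the extended span of 7 genes (23.3%, background 6.04%). Within the gene itself they were found in 6 (background 2.41%). These backgrounds, and that of 0.351%, are over genes of all lengths, and no share among long genes is given for them. For IDR summits of any strength at no protein-coding start, the extended spans gave 43.3% of the genes (background 26.6%). Among genes of at least 4999 bp the gap was smaller, 57.9% (11 of 19) against 46.8% of all genes of that length.

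**Figure D3:**
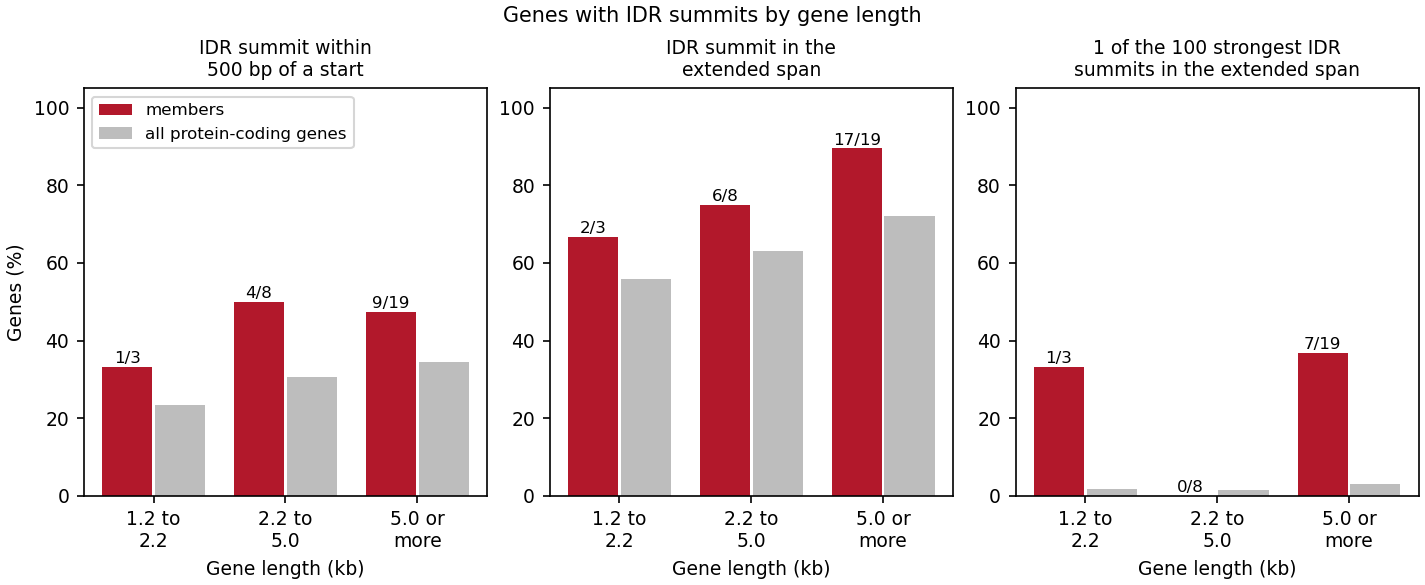
Percent of genes with an IDR summit at a start (left), in the extended span (middle) and with 1 of the 100 strongest summits in the extended span (right), for the members (red, counts above the bars) and all protein-coding genes (grey), by gene length in kb. In the longest class the values are 47.4% against 34.5%, 89.5% against 72.0% and 36.8% against 3.13%.

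Start summits were often shared with a neighbouring gene. Of the 18 start summits, 11 (61.1%) were also within 500 bp of a start of another protein-coding gene, against 36.4% of all IDR summits at protein-coding starts. They belonged to 9 of the 14 genes, namely E(z), Su(z)12, Jarid2, phol, Sfmbt, brm, mor, Snr1 and skd. The partners included mRpL44, a mitochondrial ribosomal protein gene, Arl1, a small GTPase gene, Pfdn6, a prefoldin subunit gene, and Uch-L5, a proteasome-associated ubiquitin hydrolase gene. Which gene such a summit serves was not tested. The other 5 genes, ph-p, ph-d, Pcl, kis and Trl, had start summits with no other protein-coding start in the window. The 18 summits had a median position 100 bp upstream of the start, and 11 of them were upstream.

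Signal values were higher in replicate 2 at most summits of these genes, as at most IDR summits. The level of a signal value may also depend on the depth of each replicate, which is unknown. Of the 63 summits, 61 had a counterpart within 100 bp in both replicates, with a median log2 ratio of replicate 2 to replicate 3 of 0.35, against 0.28 over all 7351 matched IDR summits. It was higher in replicate 2 at 53 of the 61 (86.9%), against 77.5% of all matched IDR summits. For the 21 summits with a pooled signal value of 1000 or more the ratios ran from −0.04 to 1.13 with a median of 0.34, and 20 of them (95.2%) were higher in replicate 2. This was near the background, since all matched IDR summits of that strength had a median of 0.34 and 93.3% were higher in replicate 2. The summit that was not was the second intronic summit of trx. The largest ratio, 2.10, was at a weak intronic summit of osa with 127.4 in replicate 2 and 29.7 in replicate 3. At ph-d the summit at 2123162 had a ratio of 1.61 (237.8 against 78.0), but replicate 3 also had a start summit of 223.0 at 2123052, beyond the matching distance. Among the 14 genes with an IDR start summit, the strongest start summit was higher in replicate 2 in 12, the exceptions being Pcl and Snr1 (background 72.1% of genes). Among the 12 genes without one that had a start summit in both relaxed lists, it was higher in replicate 3 in 9, and in replicate 2 only in Psc, trx and kto (3 of 12 higher in replicate 2, background 38.3%). The direction between replicates at weak starts was thus mostly the reverse of that at strong ones, here as over all genes.

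**Figure D4:**
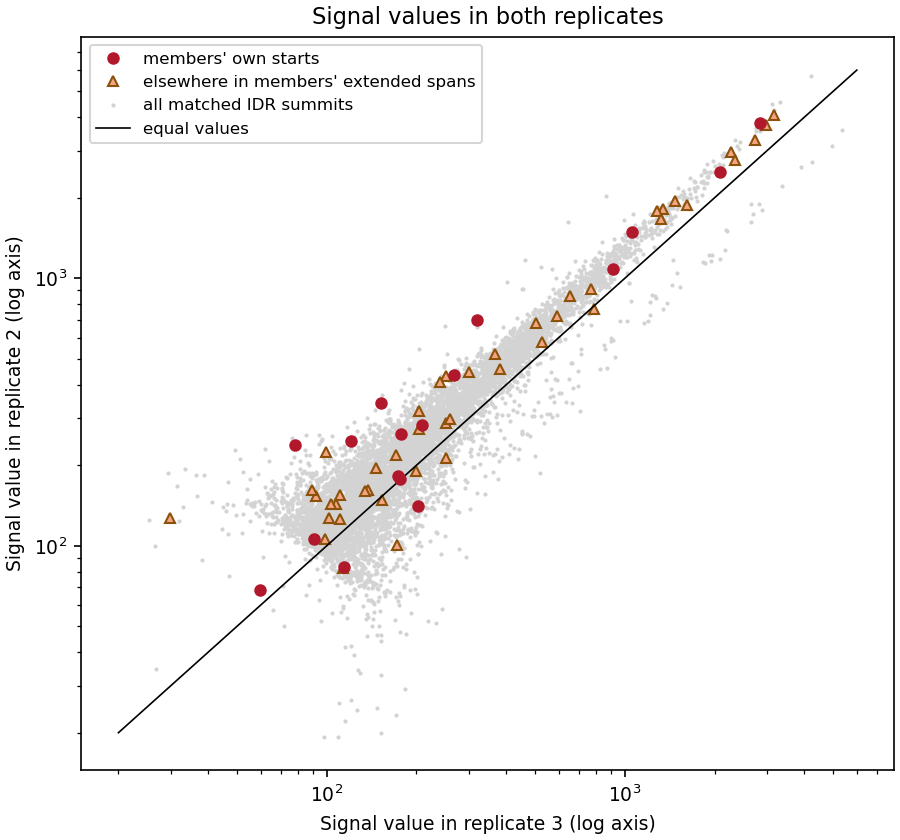
Signal value in replicate 2 (vertical log axis) against replicate 3 (horizontal log axis) for summits at the members' own starts (circles), elsewhere in their extended spans (triangles) and for all matched IDR summits (grey), with a line of equal values. Most member summits lie above the line, by a median log2 ratio of 0.35, and points scatter more widely at low signal values.

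The sequence at these summits was rich in A and T, as at IDR summits in general. GC content within 50 bp of the 63 summits was 31.0% ± 8.88 (SD over summits), against 31.8% ± 9.51 over all IDR summits. At the 18 start summits it was 33.3% ± 9.13, against 33.7% ± 10.7 at other IDR summits at protein-coding starts. The lowest start values, 13.9%, were at brm and E(z). The word TATAAA was present, on either strand, in 27.0% of the 63 windows against 26.1% of all IDR windows, and ATATTA in 27.0% against 24.0%. Of words tied to Polycomb targeting, GCCAT, the core of the Pho site, was in 11.1% against 13.0%, and GAGAG, the GAGA factor word, in 4.76% against 8.07%. These shares pool kinds of summit that differed. At the 18 start summits TATAAA was in 16.7% and GCCAT in 0.0%, against 24.4% and 13.6% at other IDR summits at protein-coding starts. At the 30 summits at no protein-coding start they were in 40.0% and 16.7%, against 27.1% and 12.6% at other such IDR summits. GAGAG was lower than the background at both kinds. The Zeste words, which are CGAGCG with either pyrimidine at the first and the fifth base, were in 14.3% against 8.74%, which is 9 of 63 windows. CGATA, a BEAF-32 word that also lies within the DRE word TATCGATA, was in 14.3% against 12.9%. By kind it was below the background, in 11.1% against 19.1% at start summits and in 3.33% against 9.27% at no protein-coding start. The rarer words searched were GATAAG, in 7.94% against 5.28%, the CTCF core, read as AGGTGGC or as AGATGGC, in 1.59% against 3.46%, the whole DRE word, in 1.59% against 1.31%, and the core promoter word GGTCACACT, in 0 of 63 windows against 0.537%. The osa window at 17704408 holds GCCAT and a Zeste word, while those of ph-p at 2137315, ph-d and trx printed above hold none of the words searched. A word in a window is a description of the sequence and not a site.

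A wider list of 46 other genes tied to these groups was counted in the same way. Of these, 19 had an IDR summit at a start (41.3%, background 25.2%), and 38 had one in the extended span (82.6%, background 58.1%). The strongest start summits were at grh, which encodes a DNA-binding factor (901.3), Chd1, a chromatin remodeller gene (731.9), Bap60, a Brahma subunit gene (563.1), and Rbbp5, a COMPASS subunit gene (498.2). Each of these was below those of ph-p, brm, E(z) and Su(z)12. Of the 46 genes, 2 had 1 of the 100 strongest IDR summits in the extended span (4.35%, background 1.88%).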

How the data were processed

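The authors deposited narrowPeak lists on build dm6 for each replicate and for the pool, as the deposited notes state, each called against 1 control alignment, and from them an IDR list. The signal value is a score given by the authors' caller, deposited as such, with no fixed range. Which peak caller and aligner were used is not given in the sources used here. Control data, reads and coverage tracks were not analysed here.

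Transcript starts and gene spans were read from the annotation of Ensembl release 115, and bases from the RefSeq Release 6 genome, the assembly that dm6 denotes. Summits were counted within 500 bp of starts and within spans extended by 5 kb. A replicate's summit was matched to an IDR summit within 100 bp. Windows of 50 bp to either side of a summit gave GC content and words. The ph copies were aligned locally (match 2, mismatch −3, gap open −5, gap extension −2). Counting was tested on simulated data with planted summits. No p-values were computed, since 1 group with 2 replicates allows none. Genes with an IDR summit at a start are given with the pooled and replicate values of their strongest start summit. Of the wider list the 4 with the strongest are given with values, and Brahma and COMPASS genes are named. The genes and lists were chosen with earlier results of these data known. Alternatives were other windows and spans, each replicate alone, the stronger 50% of IDR peaks, other matching distances and window sizes. The count of genes with 1 of the 100 strongest summits, its alternatives, and the crediting of shared starts were added after seeing the data. Python 3.11.15, numpy 2.4.6, pandas 2.3.3, biopython 1.88 and matplotlib 3.10.9 were used.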

Additional observations from a re-analysis of the deposited data

How the results depend on the processing

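Of 39 alternatives, 24 left the value within 1.5 times a count or within the spread used for a value, and 15 moved it. Of these results only the median log2 ratio at start summits has a direction. It was 0.42, and 0.34 and 0.43 with matching within 50 bp and 200 bp. The count of 14 genes with an IDR summit at a start became 27 with the relaxed pooled list, 7 with the stronger 50% of IDR peaks and 5 where no other protein-coding start was allowed within 500 bp, and was 14 in each replicate alone. It was 11 when each summit was credited to the nearest protein-coding gene only. For the counts of 5 and 11 no share over all protein-coding genes is given, so that neither can be set against a background. The count of 25 genes with a summit in the extended span became 15 with no extension. No share over all protein-coding genes is given for the span without extension, so that the 15 cannot be set against a background. The 63 summits became 30 with no extension and 38 with the stronger 50%. The median rank of the strongest start summit, 46.3% of the list, became 37.98% with a window of 1000 bp, 28.8% with the stronger 50% and 39.9 to 41.4% with 1 replicate alone. The mean GC content at start summits, 33.3%, became 30.5% within 25 bp of the summit, 36.2% within 100 bp, 30.3% with the stronger 50% and 33.8 to 35.2% with 1 replicate alone. The 8 genes with 1 of the 100 strongest summits became 3 with no extension. For the other lists, windows and extensions the number of peaks or bases entered differs by construction. Allowing no other start leaves out the 11 shared start summits. For each replicate alone the cause was not tested. No paired analysis was possible because there is only 1 group. Depth is unknown, so that a gene without a summit may be bound below the limit of the lists.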
